A study of Mus musculus with 4 samples.

Results

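The genes described here are those for which the response to lipopolysaccharide (LPS) could be compared between wild-type and Jmjd3-/- macrophages. For each gene the difference of responses was the LPS effect in Jmjd3-/- cells minus the LPS effect in wild-type cells, on the log2 scale, where 1 unit is 2-fold. Each gene was represented by its brightest probe set naming 1 gene, and it had to reach log2 6 on at least 1 array. Of 18193 genes, 9385 met this rule and 8808 did not. Of the 9385, 931 (9.92%) had responses 2-fold or more apart. The cells came from mouse bone marrow cultured with M-CSF, a macrophage growth factor, for 5 days. The groups were wild type unstimulated, wild type with LPS at 100 ng/ml for 4 h, Jmjd3-/- unstimulated and Jmjd3-/- with the same LPS treatment. Each was represented by 1 array, so no difference below has a replicate check, and there is no test. Jmjd3-/- cells are called knockout here. The strain, age and number of mice and the form of the deletion are not stated.

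LPS is sensed by Toll-like receptor 4, which activates NF-kB and mitogen-activated kinases and, through interferon regulatory factors, the gene of interferon beta. Some target genes are induced directly, whereas others need the interferon made by the cell, whose signal reaches promoters through STAT proteins and the interferon-stimulated response element. Jmjd3, encoded by Kdm6b, removes methyl groups from lysine 27 of histone H3, a mark of silent genes, and is itself induced by LPS in macrophages. The comparison separates genes whose levels were apart before LPS from genes whose levels were apart with it.

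Array medians lay between 4.15 and 4.24. Values on the 4 arrays are given as log2 RMA levels in the order unstimulated wild type, wild type with LPS, unstimulated knockout and knockout with LPS. Readings under 6 are near background, so a difference that rests on one has an uncertain size. Kdm6b read 10.33, 11.23, 9.82 and 10.82. It was thus detected in the knockout, and because the deleted part is not known here, its probe set does not check the labels. All 8 macrophage markers, such as Adgre1 and Csf1r, read above 6 on each array. Markers of other cells also differed by genotype, in both directions. The summed linear level of 11 granulocyte and precursor markers was 3468, 4769, 38035 and 38248, and that of 12 stromal markers, 11 of them past the floor, was 694, 829, 30775 and 25361. In bulk cells, fewer cells of a type and less RNA per cell cannot be told apart. These marker levels lay with genotype in both states, and their part in the differences described below was not tested. The defining markers Ngp (3.87, 4.06, 11.82 and 11.68) and Mpo (4.65, 4.16, 11.64 and 11.02) were near background in wild type.

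The LPS responses were within 2-fold of each other for most genes, and those apart divided almost evenly by direction. The difference of responses had a median of -0.03, its 5th and 95th percentiles were -0.98 and 1.02, and it ranged from -4.57 for Lcn2 to 5.99 for Plau. It was positive by 2-fold or more for 487 genes (5.19% of those compared) and negative by 2-fold or more for 444 (4.73%). At 4-fold the counts were 103 (1.1%) and 78 (0.831%). A positive difference means that the knockout value moved further up, or less far down, with LPS than the wild-type value did. By itself the LPS response reached 2-fold upward in 9.42% of wild-type and 11.1% of knockout values, and downward in 14.1% and 15.3%. Of the 487 genes, 129 read 2-fold or more higher with LPS in both genotypes, 158 did so in the knockout with the wild type under 2-fold, and 110 read 2-fold or more lower in the wild type with the knockout under 2-fold. The counts included genes near background: 275 of the 487 and 160 of the 444 reached log2 6 on all 4 arrays. With a floor of log2 8 they were 335 and 209, and with 64 added to each linear value, which damps low readings, 262 and 175. Just outside the 2-fold limit was Tasor2 (0.9997) and just inside it Zmynd19 (1.0010); at the floor, Nxpe3 (highest reading 5.9998) was out and Rasgrp2 (6.0015) was in.

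Each gene was then placed by where its genotype difference lay. The difference of responses equals the genotype difference with LPS minus that without, so the classes are arithmetic descriptions, and a value that was off on 1 array enters each difference using that array. Of the 487 positive genes, 181 (37.2%) were 2-fold or more apart before LPS and under 2-fold apart with it. By the definition of this class, all 181 read lower in the unstimulated knockout. Another 121 (24.8%) were level without LPS and apart with it. There were 63 genes apart the same way in both states, 12 apart in opposite ways, and 110 (22.6%) under 2-fold apart in each state, with smaller differences of opposite sign. Of the 444 negative genes, 126 (28.4%) were apart with LPS alone and 109 (24.5%) without LPS alone, while 98 were apart the same way in both states, 7 in opposite ways, and 104 (23.4%) in neither. At 4-fold the positive side held 47 genes apart without LPS alone and 25 apart with LPS alone. On the negative side the order was the other way, with 18 and 38.

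**Figure D1:**
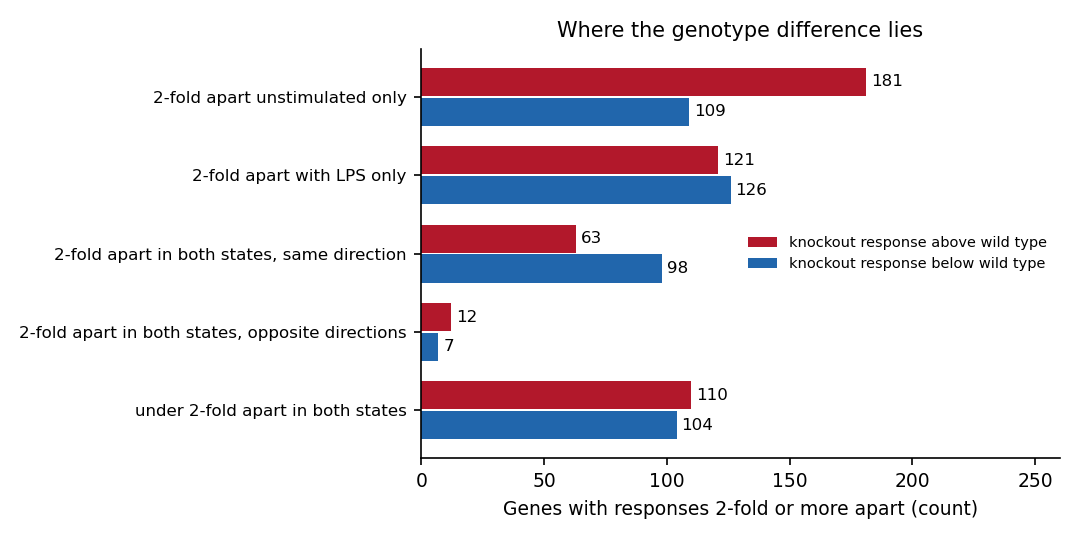
Genes with LPS responses 2-fold or more apart, counted (horizontal axis) by where the knockout and wild-type levels differed by 2-fold (rows); red bars are genes whose response was greater or less negative in the knockout, blue bars the reverse. The longest bar is the 181 genes that were apart in unstimulated cells alone with a greater response in the knockout, against 109 genes with a lesser one.

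Genes 2-fold higher in the knockout in 1 state were mostly so in the other as well, whereas lower genes were less often shared. The genotype difference without LPS and that with LPS share no array, and across the 9385 genes their Pearson correlation was 0.783 and their Spearman correlation 0.582, over genes that share the arrays' normalization and are not independent. Without LPS 903 genes (9.62%) were above the wild type in the knockout by at least 2-fold, and 558 (5.95%) were below it. The LPS arrays gave 924 (9.85%) and 510 (5.43%). Of the 903 genes higher without LPS, 68.5% were also 2-fold higher with it. Of the 558 lower genes, 46.4% were also lower with LPS, and 45.7% had responses 2-fold or more apart, against 23.8% of the 903. A further 717 genes were apart by 2-fold the same way in both states with responses within 2-fold of each other.

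**Figure D2:**
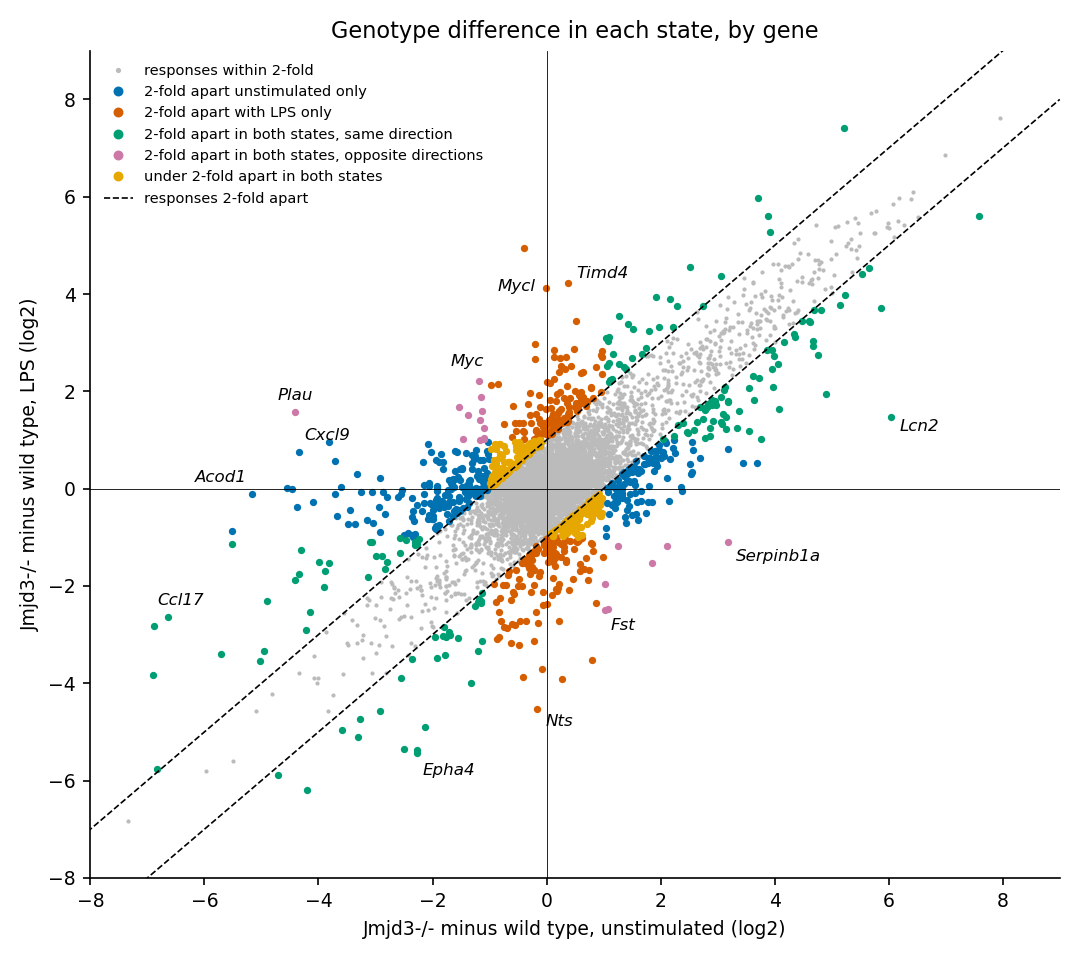
Knockout minus wild-type level (log2) without LPS (horizontal axis) and with LPS (vertical axis) for 9385 genes, 1 point per gene; dashed lines mark responses 2-fold apart and colours the classes. Blue points such as Acod1 and Cxcl9 lie far left and close to the horizontal line at 0, orange points such as Mycl and Nts close to the vertical line, and Plau and Serpinb1a lie in corners where the difference has opposite signs.

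The class apart without LPS alone and lower in the unstimulated knockout was led by inflammatory chemokines, interferon-inducible GTPases and Acod1, the enzyme that makes itaconate. Over its 181 genes the median levels were 9.30, 9.82, 7.295 and 9.72. By these medians, though not gene by gene, the level with LPS was one that the wild type had nearly reached before it. That the genotypes were close with LPS is part of the definition of the class. The median response was 0.75 in wild type and 2.39 in the knockout. Of these genes 75 read 2-fold or more higher with LPS in both genotypes, 52 in the knockout with the wild type under 2-fold, and 30 read 2-fold or more lower in the wild type with the knockout under 2-fold. All 4 readings were at log2 6 or more for 132 of the 181. This class was within 1.5 times its size under all 7 alternative settings, from 124 to 196 genes.

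All 10 interferon-inducible GTPase genes past the floor had positive differences, against 5.19% of all genes. These GTPases, of the guanylate-binding (Gbp) and immunity-related (Irg) families, attack the compartments of intracellular microbes. Their median genotype difference was -3.66 without LPS and 0.02 with it, and the median difference of responses was 3.35. The level of Iigp1 was 9.77, 12.16, 5.22 and 12.17, a difference of responses of 4.55, and another probe set gave 4.75. Gbp2b read 9.77, 12.28, 6.06 and 12.85 (4.29). Gbp7 read 11.50, 12.42, 7.89 and 12.45, so 3 arrays were within 2-fold and the unstimulated knockout stood alone below them (3.64, and 3.55 by another probe set). Gbp6 (3.99), Gbp2 (3.81), Irgm2 (2.57), Igtp (2.36), Gbp3 (2.05) and Irgm1 (1.78) had the same order. The exception was Gbp8, with 9.61, 9.70, 5.30 and 8.45, which stayed 1.25 lower in the knockout with LPS. Members of these families are similar in sequence, and cross-hybridisation between them was not tested.

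Promoters are shown for 4 of these genes because their values share 1 pattern and their windows share a motif. RefSeq windows of build GRCm38.p6, 250 bases before to 50 after the start, were found for 7 of the 10 GTPase genes, and all 7 held a match to the interferon-stimulated response element (ISRE), searched by its consensus on both strands. It was also in 15 of 28 windows (53.6%) of antiviral interferon-stimulated genes, whose responses differed less (median 0.68). The element was in 3.49% of all 27025 windows and in 3.29% of those of genes past the floor. The 250 bases before the start are printed 5′ to 3′ on the gene's strand, with capitals for ISRE, for the STAT-bound GAS motif (TTCNNNGAA) and for the AP-1 motif (TGANTCA). In Gbp2b (chr3:142594597-142594846, plus strand) the ISRE began at position -137 from the start, in Gbp2 (chr3:142620413-142620662, plus strand) at -59, in Gbp7 (chr3:142530086-142530335, plus strand) at -53 and in Igtp (chr11:58199306-58199555, plus strand) at -34.
Gbp2b: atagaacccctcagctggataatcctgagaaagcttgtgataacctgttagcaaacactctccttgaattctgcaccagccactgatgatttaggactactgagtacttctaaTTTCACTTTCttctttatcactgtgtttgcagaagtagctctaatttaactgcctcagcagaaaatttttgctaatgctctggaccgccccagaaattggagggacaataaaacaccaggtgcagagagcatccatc
Gbp2: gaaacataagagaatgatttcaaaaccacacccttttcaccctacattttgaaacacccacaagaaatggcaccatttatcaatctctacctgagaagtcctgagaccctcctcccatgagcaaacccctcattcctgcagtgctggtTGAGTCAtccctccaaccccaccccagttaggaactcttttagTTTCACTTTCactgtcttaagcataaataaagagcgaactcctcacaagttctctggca
Gbp7: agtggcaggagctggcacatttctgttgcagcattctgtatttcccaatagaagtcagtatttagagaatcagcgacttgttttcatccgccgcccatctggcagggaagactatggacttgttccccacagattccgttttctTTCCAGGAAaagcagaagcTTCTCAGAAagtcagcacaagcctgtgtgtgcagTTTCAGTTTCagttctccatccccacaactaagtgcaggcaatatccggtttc
Igtp: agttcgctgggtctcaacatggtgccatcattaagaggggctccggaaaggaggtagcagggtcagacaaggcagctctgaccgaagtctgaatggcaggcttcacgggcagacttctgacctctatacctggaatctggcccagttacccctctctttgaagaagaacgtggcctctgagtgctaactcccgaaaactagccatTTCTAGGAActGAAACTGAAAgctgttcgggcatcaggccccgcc
In Gbp7 matches to GAS lay at -106 and -87, and in Igtp 1 lay at -45, next to the ISRE. The capitals at -102 in Gbp2 are an AP-1 match. A match is a description of letters and not evidence of binding.

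Over wider sets the ISRE was in 8.44% of 379 windows of positive genes, 13.3% of the 143 windows of the class apart without LPS alone, and 1.44% of 347 windows of negative genes. It was in 10.9% of 402 windows of genes that read 2-fold or more higher with LPS in both genotypes by similar amounts. That share lay above the share of all positive genes and below that of the class apart without LPS alone. AP-1 matches were in 4.94% of windows past the floor, 38 of the 379 of positive genes and 6.92% of those of negative genes. For the NF-kB motif, searched by its consensus on both strands, the shares past the floor, of positive and of negative genes were 1.67%, 3.96% and 1.73%. Its share was 1.62% of all windows and 2.49% of the 402. ISRE and GAS matches can lie side by side, as in Igtp, and the shares count a window under each motif it holds.

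Antiviral interferon-stimulated genes differed by much less than the GTPases. Of 39 past the floor 12 were positive and none negative (5.19% and 4.73% over all genes), 6 of them apart without LPS alone and 6 in neither state. The list's median difference of responses was 0.68, against -0.03 over all genes. Zbp1, a sensor of viral nucleic acid, read 8.99, 11.29, 7.35 and 11.49 (1.84), and Ifit2, an inhibitor of viral translation, 9.24, 13.36, 7.76 and 13.40 (1.52). Oasl1 had 1.13 and Mx1 1.01. With LPS none of the 39 was 2-fold lower in the knockout and 1 was 2-fold higher. Ifnb1, the gene of interferon beta itself, read 3.76, 8.44, 3.54 and 8.63, and its responses were 0.41 apart. Irf1, a transcription factor of interferon responses, had a positive difference of 1.72 (10.56, 11.57, 8.91 and 11.63), and Stat2 1.10. In the class I antigen processing list 4 of 15 genes were positive (5.19% over all genes), Tap1 (1.27), Nlrc5 (1.25), Psmb9 (1.11) and Psmb10 (1.07).

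Among 12 genes of the PYHIN and Trim5 clusters 5 were positive (5.19% over all genes), in 2 patterns. Trim30d (1.74), Ifi204 (1.31) and Ifi209 (1.10) were lower in the unstimulated knockout and level with LPS. Ifi202b read 3.65, 5.41, 8.86 and 12.83 and Trim12a 3.04, 3.40, 6.75 and 9.38, near background in wild type and high in the knockout in both states. Their differences of responses, 2.21 and 2.27, were 2-fold or more on top of genotype differences of at least 3.71.

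Most genes of chemokines that attract monocytes or T cells were lower in the unstimulated knockout and within 2-fold of the wild type with LPS. Of 8 monocyte-attracting chemokine genes 6 were positive (5.19% over all genes), 5 of them apart without LPS alone, with a list median of 2.90. Ccl8 (2.49) stayed 1.51 lower in the knockout with LPS, and Ccl6 and Ccl9 were under 2-fold apart in each state. Ccl12 read 10.49, 12.16, 6.68 and 13.12 (4.78), and Ccl7, like it a ligand of CCR2, 10.11, 12.22, 6.78 and 12.53 (3.63). Ccl2 read 12.26, 13.03, 9.34 and 13.24 (3.13), with 3 arrays within 2-fold of each other. Unstimulated wild-type cells therefore read within 1 unit of their LPS level for Ccl2, and the unstimulated knockout stood well below. Ccl4 (2.999) and Ccl3 (2.81), which attract monocytes, had the same order. Of 5 T-cell attracting chemokine genes 4 were positive, 3 of them apart without LPS alone. Cxcl9 read 7.69, 11.36, 3.34 and 12.10 (5.09, and 4.51 by another probe set), Ccl5 10.03, 13.57, 5.57 and 13.56 (4.46) and Cxcl10 10.24, 13.64, 8.18 and 13.74 (2.16). The other two, Cxcl11 (1.75) and Cxcl16 (0.62), were under 2-fold apart in each state. In Cxcl9, Ccl5 and Cxcl10 the LPS level of the knockout was within 0.75 of the wild type's. With 64 added to linear values Cxcl9, whose unstimulated knockout reading was near background, had 2.60.

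Of 5 neutrophil-attracting chemokine genes 3 were positive and 1 negative (5.19% and 4.73% over all genes). The 3 positive genes stayed 2-fold or more lower in the knockout with LPS. Cxcl3 read 10.98, 12.03, 4.09 and 9.21, so its genotype difference went from -6.89 to -2.82. The gap narrowed for Cxcl2 (1.61) and Ppbp (1.998) too, and Cxcl1 (-1.06) was the reverse: level without LPS (7.94 and 7.71) and 1.28 lower in the knockout with it. Ccl17, a CCR4 ligand, read 11.47, 12.44, 4.84 and 9.80 (3.99), and also stayed lower. Ccl22, the other CCR4 ligand, read 9.50, 12.04, 3.98 and 11.17 (4.65), and met the wild type to within 0.87. Cfb, complement factor B of the alternative pathway, gave 10.93, 12.62, 5.41 and 11.48 (4.38). In all, 32 positive genes were lower in the knockout in both states with the gap narrowing, and 31 were higher in both with the gap widening. With 64 added to linear values, Cxcl3 had 1.99 and the median of the 4 genes of alternative-type chemokines went from 2.29 to 1.48.

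The cytokine list split into both directions. Of 29 inflammatory cytokine and enzyme genes 9 were positive and 11 negative (5.19% and 4.73% over all genes), and the split mostly followed the state in which the genotypes were apart. Among the positive genes 6 were apart without LPS alone: Acod1, Il1a, Il1b, Saa3, Il1rn and Tnf. Among the negative genes 8 were apart with LPS alone: Il12a, Csf3, Inhba, Nos2, Il23a, Edn1, Hamp and Il12b. The list median, -0.36, describes neither set.

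In the first set the wild type read 2-fold or more above the knockout without LPS. Acod1 read 11.55, 13.32, 6.39 and 13.21, a response of 1.77 in wild type and 6.81 in the knockout. Il1b, the gene of interleukin-1 beta, read 10.09, 13.63, 6.72 and 12.91 (2.64), and Il1a 6.97, 10.004, 3.48 and 9.27 (2.75). Il1rn, the gene of the interleukin-1 receptor antagonist, read 12.61, 13.49, 9.999 and 13.32, and its 3 probe sets gave 2.44, 2.80 and 2.85. Saa3, an acute phase protein gene, had 2.50. For Tnf the values were 8.78, 12.62, 7.13 and 12.06, just past the limit at 1.09. In each of these 6 genes the knockout with LPS read lower than the wild type with LPS, by between 0.03 and 0.73.

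In the second set the genotypes started level, mostly near background, and the wild type went further. The genes of the interleukin-12 and interleukin-23 subunits were all in it. Il12a (p35) read 3.88, 8.25, 3.40 and 5.04 (-2.73), Il23a (p19) 4.09, 7.15, 3.34 and 4.30 (-2.10), and Il12b, which encodes the subunit that both cytokines share, 3.63, 11.58, 3.23 and 10.13 (-1.04, and -1.36 by another probe set). Nos2, inducible nitric oxide synthase, read 3.75, 10.87, 3.14 and 8.08 (-2.17). Csf3, the gene of granulocyte colony-stimulating factor, read 3.41, 6.23, 3.26 and 3.47, so that with LPS it was past the floor in wild type alone. Inhba, the activin A subunit, was expressed without LPS and read 9.37, 12.21, 9.56 and 10.12 (-2.28, or -1.58 as the mean of its probe sets). With 64 added to linear values Csf3 was under 2-fold (-0.87), while Il12a had -1.85, Il23a -1.17 and Nos2 -2.44. Il6 read 4.80, 13.12, 4.10 and 11.68 (-0.74) and Il10, an anti-inflammatory cytokine, differed by -0.39, so neither reached 2-fold.

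**Figure D3:**
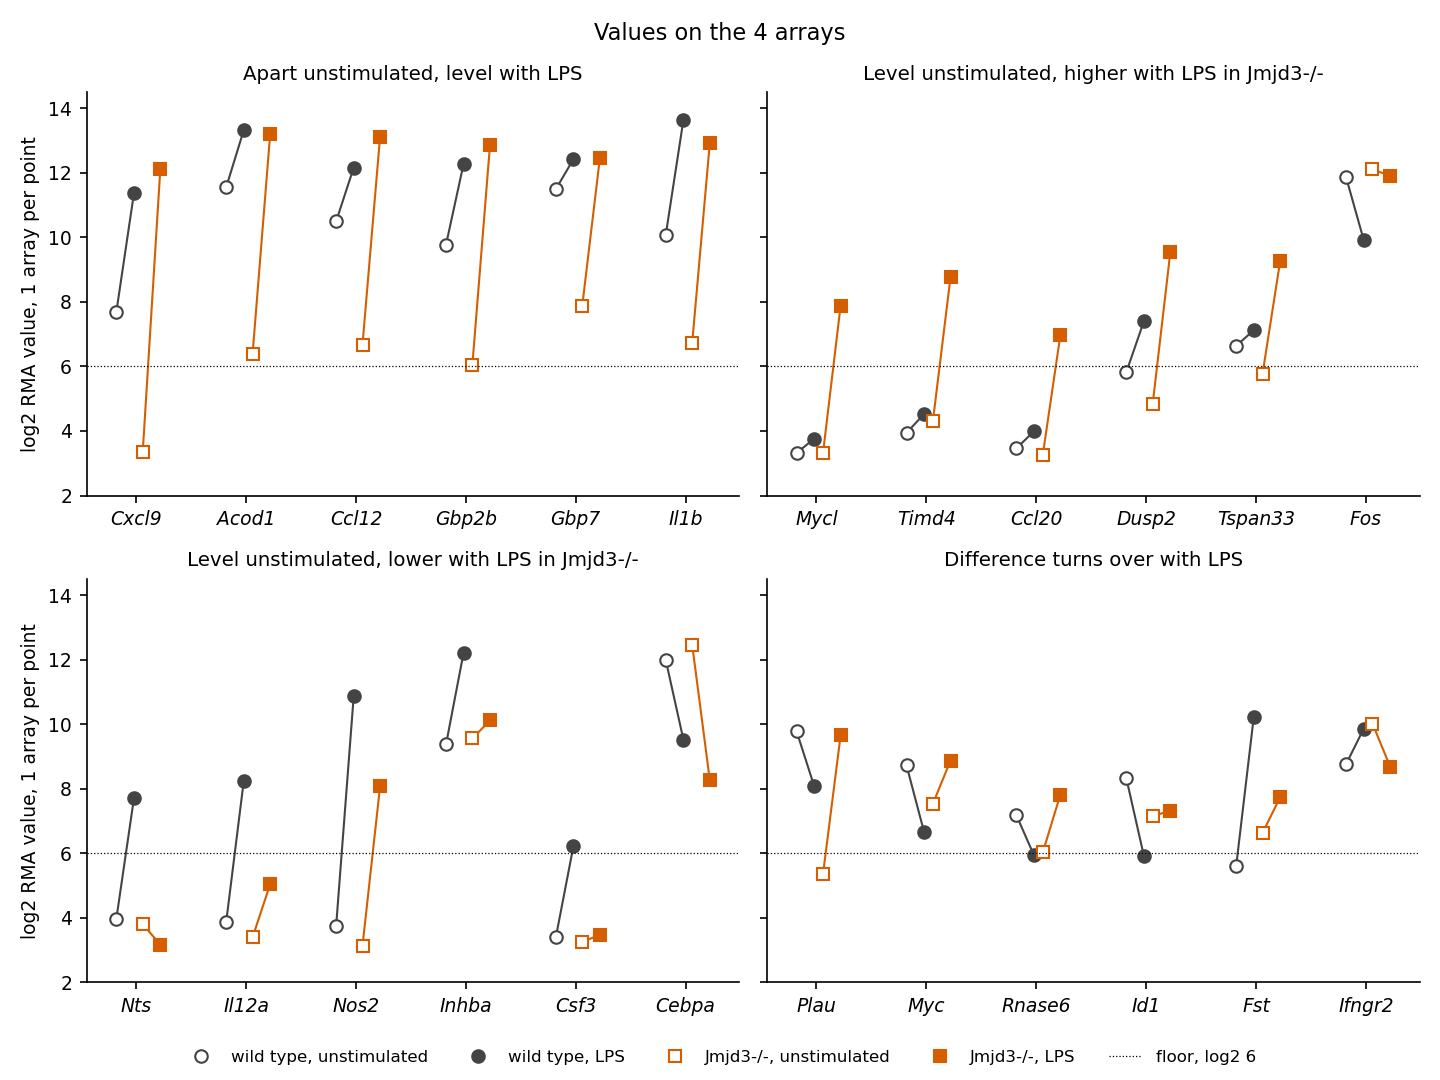
Log2 RMA level (vertical axis) of 24 genes on the 4 arrays, circles for wild type and squares for Jmjd3-/-, open without LPS and filled with it, lines joining the states of a genotype and a dotted line at the floor of 6. In the upper left panel the open square is the low point and the filled symbols meet; in the upper right the filled square stands above, in the lower left below, and in the lower right the order of the genotypes turns over.

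In a list of NF-kB subunits, their targets and feedback regulators 12 of 36 genes were positive and 0 negative (background 5.19% and 4.73%). The positive genes included the NF-kB targets Icam1 (1.62) and Traf1 (1.43), while the subunit genes Rel (0.02), Relb (-0.06), Nfkb2 (-0.01) and Rela (-0.70) were within 2-fold. Of these 12, 6 were apart without LPS alone, including Socs3 (9.39, 12.22, 7.46 and 11.96; 1.67), an inhibitor of cytokine receptors, Nfkbie (1.76), an inhibitor of NF-kB, and Tnfaip3 (1.29), which encodes A20. Dusp2, a phosphatase of mitogen-activated kinases, was the member apart with LPS alone, at 5.82, 7.40, 4.84 and 9.53 (3.11). Dusp5 (2.37) and Dusp6 (1.77), its relatives, were lower in the unstimulated knockout. Socs2 differed in kind: its values were 10.93, 8.71, 7.99 and 8.33, and the high array was the unstimulated wild type. In the Toll-like receptor pathway list none of 23 genes was positive and 2 were negative, Lbp (-2.02), which carries LPS to its receptor, and Tlr13 (-1.02).

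The class level without LPS and higher with it in the knockout held 121 genes, with median levels of 6.74, 5.72, 7.01 and 7.60. Of these 44 read 2-fold or more higher with LPS in the knockout with the wild type under 2-fold, and 33 read 2-fold or more lower in the wild type with the knockout under 2-fold. In the first kind, genes near background on 3 arrays came up on the knockout LPS array. BC023105 read 3.29, 4.10, 2.89 and 9.04 (5.35). Mycl, which encodes the transcription factor L-Myc, read 3.32, 3.76, 3.32 and 7.88 (4.12). Timd4, a receptor for phosphatidylserine on dying cells, read 3.94, 4.53, 4.32 and 8.76 (3.86), and Ccl20, the ligand of CCR6, 3.46, 3.99, 3.27 and 6.97 (3.17). Because the floor asks for 1 array past log2 6, such genes entered through the array on which they were high. Tspan33, a tetraspanin, was expressed on other arrays too, at 6.64, 7.12, 5.78 and 9.27 (3.003, and 2.12 to 2.74 by other probe sets). Damped with 64 added to linear values, BC023105 had 2.92, Timd4 2.43, Mycl 1.95 and Ccl20 1.27.

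The second kind were genes that read lower with LPS in the wild type and held their level in the knockout. The transcription factor gene Fos read 11.86, 9.92, 12.10 and 11.91 (1.75), and Egr1, also an immediate early gene, 11.81, 10.41, 11.79 and 11.72 (1.32). On 3 arrays each lay within 0.24 of its fellows, and the wild-type LPS array stood below. Pdgfa, a growth factor gene, read 11.93, 9.79, 12.44 and 11.79 (1.49, with 0.54 by another probe set), and Sfxn5, a mitochondrial carrier gene, 7.97, 5.41, 8.23 and 7.94 (2.27). Klf4, a transcription factor gene, had 1.14. In the AP-1 and immediate early list 8 of 23 genes were positive and none negative, beside 5.19% and 4.73% of all genes. Besides Fos and Egr1 they were Myc, Egr3 and Egr2, and Batf, Batf2 and Batf3, which were lower in the unstimulated knockout. Batf2 read 6.95, 9.65, 4.79 and 9.72 (2.22).

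The class level without LPS and lower with it in the knockout held 126 genes, with median levels of 6.65, 7.82, 6.89 and 5.92. In 35 the wild type read 2-fold or more higher with LPS and the knockout moved under 2-fold, and in 38 the knockout read 2-fold or more lower and the wild type moved under 2-fold. Nts, the precursor of the peptide neurotensin, led it at 3.97, 7.70, 3.81 and 3.17 (-4.37). U90926 read 3.15, 9.83, 3.95 and 6.30 (-4.33), Zfp558, a zinc finger gene, 3.12, 7.18, 3.40 and 3.26 (-4.20), and Thbs4, a thrombospondin, 3.45, 6.80, 3.04 and 2.94 (-3.45). In Nts, Zfp558 and Thbs4 the wild-type LPS array was past the floor and the other 3 were near background. With 64 added, Nts had -1.87 and Zfp558 -1.54. Expressed genes were in the class as well. Gpr35, a G protein-coupled receptor gene, read 8.83, 8.51, 8.14 and 5.63 (-2.18) and Ptger2, the prostaglandin E2 receptor EP2, 8.43, 8.23, 8.21 and 6.25 (-1.76), so the knockout LPS array stood alone below the others. Cebpa, a myeloid transcription factor gene, read lower with LPS in both, at 11.98, 9.52, 12.46 and 8.28 (-1.73).

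The upstream sequences of 2 genes that came up on 1 LPS array, in opposite genotypes, are shown to set beside the GTPases. Ccl20 (chr1:83116516-83116765, plus strand) held an NF-kB motif match at -80, and Nts (chr10:102490419-102490668, minus strand) held an AP-1 match at -207, with both in capitals.
Ccl20: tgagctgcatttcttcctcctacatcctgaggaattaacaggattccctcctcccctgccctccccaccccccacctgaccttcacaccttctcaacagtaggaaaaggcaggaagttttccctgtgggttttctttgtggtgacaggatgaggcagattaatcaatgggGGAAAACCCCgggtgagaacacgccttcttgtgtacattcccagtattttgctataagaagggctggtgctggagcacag
Nts: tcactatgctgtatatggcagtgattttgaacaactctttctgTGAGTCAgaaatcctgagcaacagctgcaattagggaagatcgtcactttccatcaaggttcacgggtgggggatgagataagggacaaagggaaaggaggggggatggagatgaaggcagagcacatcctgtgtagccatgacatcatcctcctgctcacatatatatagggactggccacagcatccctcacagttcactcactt
Neither window held an ISRE match, which says only that these letters are not in it.

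Negative genes apart without LPS alone, by definition, read higher in the knockout before LPS and within 2-fold of the wild type with it. There were 109, with median levels of 5.71, 5.11, 7.37 and 5.55, and 30 reached log2 6 on all 4 arrays. With LPS 52 read 2-fold or more lower in the knockout with the wild type under 2-fold, and 26 lower in both. In 16 the wild type read 2-fold or more higher with the knockout under 2-fold, and 6 read higher in both. Ptgs2, which encodes cyclooxygenase 2, was the well-expressed example, at 9.40, 13.20, 11.15 and 12.70 (-2.25, and -3.15 by another probe set). Bnip3, a mitochondrial gene induced by hypoxia, read 8.31, 10.30, 9.80 and 9.76 (-2.03). Nrep (3.56, 4.30, 7.24 and 4.83; -3.15), Shisa9 (2.85, 3.01, 6.29 and 3.53; -2.92) and the receptor gene Notch4 (3.30, 2.87, 6.47 and 3.69; -2.36) were past the floor on the unstimulated knockout array alone. With 64 added Nrep had -1.36, while Shisa9 (-0.93) and Notch4 (-0.94) were under 2-fold. At a floor of log2 8, 36 of the class were left to compare.

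Negative genes apart in both states were mostly higher in the knockout, 68 against 30. Lcn2, a lipocalin that binds bacterial iron carriers, had the lowest difference of responses. It read 5.22, 10.42, 11.27 and 11.90, so the wild type moved by 5.20 and the knockout, already high, by 0.63. Lcn2 and Camp (4.08, 6.13, 11.66 and 11.73; -1.98, or -0.66 with 64 added) are granulocyte markers, and the other 9 of that list past the floor had responses within 2-fold, with a list median of -0.63. Timp1 (-1.61), an inhibitor of matrix proteases, and Pdgfrb (-1.87), the stromal marker with responses 2-fold apart, were also apart the same way in both states. Unlike Lcn2, Pdgfrb had a wild-type response under 2-fold, and its knockout value was lower with LPS. The place of these genes beside the summed marker levels given above was not tested. Of the 30 genes lower in the knockout in both states, Epha4, an ephrin receptor, read 5.96, 9.90, 3.69 and 4.46 (-3.16), and Gzmb, granzyme B, 5.88, 8.69, 3.60 and 3.31 (-3.11).

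In 12 positive and 7 negative genes the order of the genotypes turned over, with a difference of 2-fold or more each way. With 64 added to linear values 1 positive and 2 negative genes did so. Plau, the urokinase-type plasminogen activator, read 9.77, 8.08, 5.36 and 9.65. It was 4.42 lower in the unstimulated knockout and 1.58 higher with LPS, a difference of responses of 5.99, and another probe set gave 4.43. Myc, the growth-promoting transcription factor, read 8.72, 6.66, 7.54 and 8.87 (3.40), and Rnase6, an antimicrobial ribonuclease, 7.18, 5.93, 6.03 and 7.82 (3.03). Id1, an inhibitor of helix-loop-helix factors, had 8.33, 5.92, 7.15 and 7.32 (2.57), and the immediate early gene Egr3 7.78, 5.76, 6.68 and 6.79 (2.13). On the negative side Serpinb1a, an inhibitor of neutrophil proteases, read 4.43, 8.69, 7.60 and 7.60 (-4.27, and -4.77 by another probe set). Cav1, the caveolae protein, had 5.21, 10.36, 6.30 and 7.89 (-3.55), and Fst, follistatin, which binds activin, 5.62, 10.24, 6.64 and 7.74 (-3.52, and -3.48 by another probe set). Fst and Inhba were thus both lower in the knockout with LPS, by 2.50 and 2.10.

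Responses of 2-fold or more in opposite directions were found in 5 of 9385 genes. In Plau, Myc and Rnase6 the wild type read lower with LPS, by -1.70, -2.06 and -1.24, and the knockout higher, by 4.30, 1.33 and 1.79. Ifngr2, a chain of the interferon gamma receptor, was the reverse at 8.77, 9.86, 10.02 and 8.69, as was Galnt3, an enzyme that starts mucin-type glycosylation, at 5.92, 7.23, 5.73 and 4.69. As the mean of its probe sets Ifngr2 had a difference of responses of -1.13 in place of -2.42, and with 64 added Galnt3 had -1.16 in place of -2.35.

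Where 3 arrays lay within 2-fold and the fourth stood at least 2-fold beyond the nearest, the array that stood apart was counted. There were 204 genes with 1 array above (2.17%) and 203 with 1 below (2.16%). The unstimulated knockout was the array above for 81 genes and the array below for 61. The knockout with LPS was above for 56 and below for 48, the wild type with LPS above for 35 and below for 73, and the unstimulated wild type above for 32 and below for 21. AA467197 (12.74, 13.39, 9.06 and 12.82) led the genes in which the unstimulated knockout was low, by the size of the gap, followed by Gbp7. In the smallest group, Hdac9, a histone deacetylase gene, read 3.88, 6.45, 5.53 and 6.41. With 1 array per group, an array that stands apart and a group that does cannot be told apart.

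Genes with a strong response were more often apart than genes at large when they were taken by either genotype. Of 545 genes that read 4-fold or more higher with LPS in 1 or both genotypes, 266 (48.8%) had responses within 2-fold, and of 396 that read 4-fold or more lower, 247 (62.4%) did, where 9.92% of all genes were apart. The difference of responses is made from the same responses, so taking genes by either genotype favours responses that are apart. Asking for 4-fold in both genotypes favours similar responses. Neither share is therefore a property of strong responders by itself. Of 241 genes that read 4-fold or more higher with LPS in each genotype, 169 (70.1%) had responses within 2-fold, 61 were positive and 11 negative. Over all genes the wild type reached 4-fold upward in 3.7% and downward in 2.6%, and the knockout in 4.68% and 2.84%. Of 115 that read 4-fold or more lower in each, 105 (91.3%) were within 2-fold. DNA replication genes had no member apart among 27, with a list median of 0.15, and mitosis genes had 2 positive and 1 negative among 29, near the background. At the share of all genes, 9.92%, lists of this size would hold few genes apart, so a count of none lies near it. None of 18 p53 targets or 15 genes of H3K27 demethylases and Polycomb had responses 2-fold apart. Among 11 class II presentation genes the costimulatory gene Cd86 was (9.53, 11.62, 7.61 and 11.65; 1.95), while the list's genotype difference was much the same without (-2.02) and with LPS (-2.08). The 13 housekeeping genes held 1, Polr2a at -1.04. Kdm6b itself had responses of 0.90 and 1.01, apart by 0.11.

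The alternative activation list had 9 of 31 members positive and none negative (5.19% and 4.73% over all genes), with Ccl22, Ccl17, Myc and Socs2 already described. Irf4, a transcription factor of alternative activation, read 9.85, 9.57, 5.97 and 7.88 (2.19) and stayed lower in the knockout in both states. Pdcd1lg2, the PD-1 ligand PD-L2, had 1.61, and the scavenger receptor gene Msr1 1.23. Classical markers of alternative activation had responses within 2-fold of each other. Arg1, which encodes arginase 1, read 13.30, 12.58, 8.96 and 8.79 (0.55), and Chil3 had 0.08 and Mrc1, the mannose receptor, 0.09. Retnla, read near the floor, was close to the limit at 0.97. Arg1 was therefore far apart by genotype in both states with responses less than 2-fold apart. Of 19 genes of plasminogen activation and proteases 6 were positive and 2 negative (5.19% and 4.73% over all genes), with Plau and its receptor Plaur (1.18) lower in the unstimulated knockout. In the cholesterol list 5 of 22 were positive and 1 negative (5.19% and 4.73% over all genes). The negative one was Abca1 (-1.11), the cholesterol efflux transporter. Among the positive were Stard4 (1.32) and Dhcr7 (1.27), which read lower with LPS in both genotypes and further so in wild type.

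**Figure D4:**
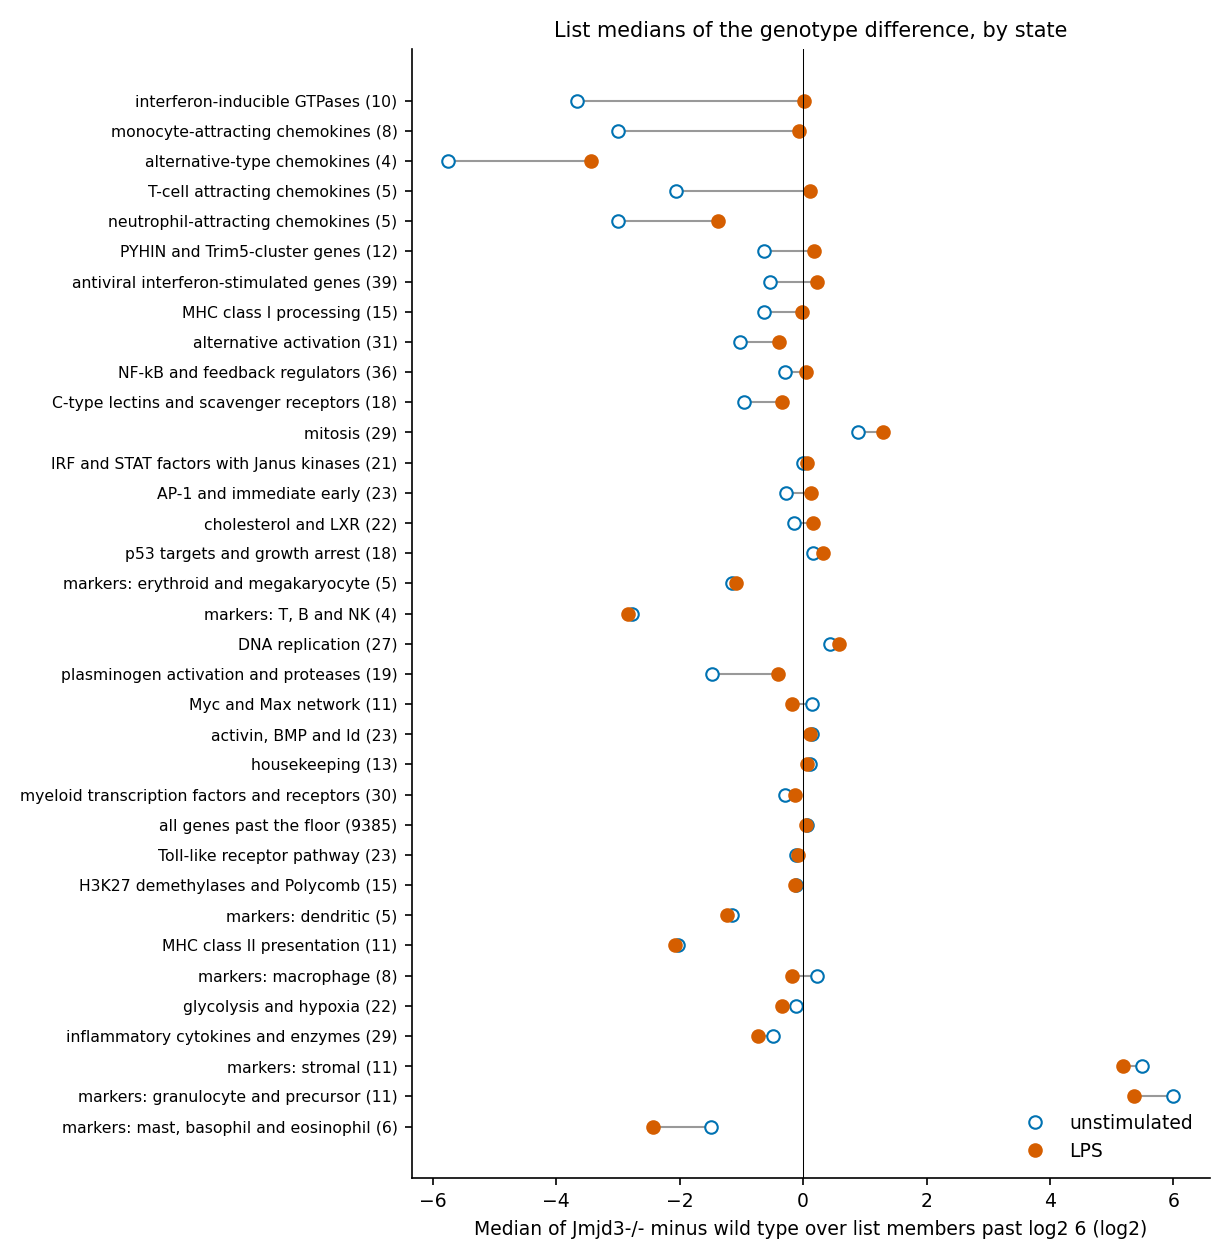
Median knockout minus wild-type level (log2, horizontal axis) of each gene list (rows, number past log2 6 in brackets), open circles without LPS and filled circles with LPS. The GTPase row runs from -3.66 to 0.02 and the monocyte chemokine row from -2.996 to -0.07, whereas the class II row has its circles at -2.02 and -2.08 and the granulocyte row at 6.001 and 5.36.

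**Figure D5:**
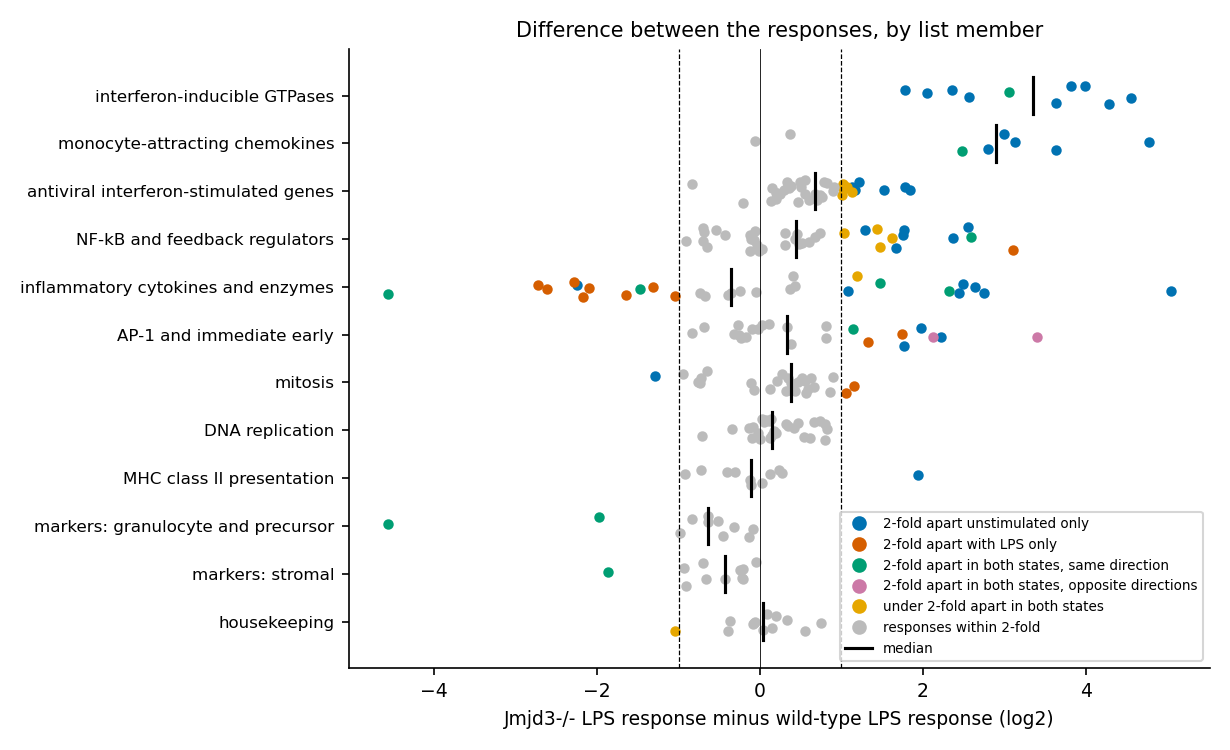
Difference of responses (log2, horizontal axis) of each gene past log2 6 in 12 lists (rows), coloured by class, with a bar at the list median and dashed lines at 2-fold. All GTPase points lie right of the dashed line, the cytokine points spread from -4.57 to 5.04, and DNA replication points lie between the dashed lines.

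Other probe sets of the same gene, which the rule did not use, measured the same RNA on the same arrays. For 168 positive genes there were 250 others past the floor, of which 229 (91.6%) had the same sign and 122 (48.8%) were also positive by 2-fold. For 144 negative genes 176 of 185 (95.1%) had the same sign and 106 (57.3%) were 2-fold. For the 181 genes apart by 4-fold (1.93% of all), 56 of 57 others (98.2%) had the same sign. Over all genes, 71.4% of 6133 had the same sign as the brightest. The median standard deviation of the difference of responses between probe sets of a gene was 0.22 over 3886 genes. This spread is technical and leaves out that between cultures and animals.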

How the data were processed

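Biotinylated cRNA made from total RNA (NuGEN Ovation, per the labels' protocols) was read on 1 Affymetrix array per group. The authors deposited log2 intensities summarised by RMA, per the submitters' processing notes. The RMA version and the set of arrays processed with these 4 were not recorded in the labels. The table held 45101 probe sets, 64 of them controls. Of the others 34945 named 1 gene, 932 several and 9160 none, and 34741 matched RefSeq of GRCm38.p6 by gene identifier while 204 kept their symbol. The brightest probe set by the mean of 4 arrays stood for each of 18193 genes.

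Differences were taken between single arrays, with limits of 2-fold and log2 6 and no test. No label ties the arrays to separate animals or cultures. The members, the 34 gene lists (671 entries, 612 matched) and the limits were chosen with earlier results of these data known. Genes were named by rule: Kdm6b, the 10 highest and 10 lowest differences, up to 6 per class and direction, up to 4 per pattern of 1 array apart, up to 5 per list, all opposite responses, and Arg1, Irf4, Chil3, Retnla, Mrc1, Il6, Tnf, Il12b, Nos2 and Ifnb1. Other named genes were chosen after their values were seen. Alternatives were other floors, other choices of probe set, quantile normalization and 64 added to linear values. Promoter windows came from RefSeq, the first listed per gene, for 7659 of the 9385 genes (81.6%). The scripts ran in Python 3.11.15 (with pandas 2.3.3, numpy 2.4.6, scipy 1.17.1 and matplotlib 3.10.9) and were tested on simulated data. Certain list genes are not analysed here.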

Additional observations from a re-analysis of the deposited data

Results flagged for a closer look

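Genes stood out here when the wild-type and knockout arrays moved in opposite directions with LPS by 2-fold or more. With 1 array per group the difference between the responses was not tested in any of them. The difference of responses was 5.99 for Plau, 3.40 for Myc and 3.03 for Rnase6, where the wild type read lower with LPS and the knockout higher. It was -2.42 for Ifngr2 and -2.35 for Galnt3, where the wild type read higher and the knockout lower.

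Probe sets with no gene name, which the comparisons did not use, also held differences. The largest positive ones that were also higher in the knockout with LPS than in the wild type were 1442338_at, at 5.36, 5.05, 5.01 and 7.70 (3.001), and 1436061_at, at 3.23, 3.56, 5.64 and 8.20 (2.22).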

How the results depend on the processing

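No paired analysis was possible because each group had 1 array and the labels carry no replicate numbers, and there was no replicate to leave out. Array values have no counting depth here, and precision is limited by the number of arrays and by signal near background.

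Of 236 list medians under the alternatives 218 were within 1 standard deviation between probe sets of the main value, and of 4195 values of 639 named genes 3735 were. The other floors and the limit on the mean of the arrays only change which genes enter. A gene's own value could not move under them, which raises the count of 3735. A change of sign was counted as a reversal only where the main value was 2-fold or more, which most list medians were not. By that rule no list median reversed. The named genes that reversed were Cenpa, 1.16 in the main setting and -0.08 as the mean of its probe sets, and Csf2, 1.48 and -0.12 with 64 added. With 64 added to linear values 262 genes were positive and 175 negative. Of the positive, 59 were apart with LPS alone, 21 apart the same way in both states, 1 in opposite ways and 57 in neither; of the negative, 34 were apart without LPS alone, 79 with LPS alone, 17 the same way, 2 in opposite ways and 43 in neither. This setting shared 427 of its 437 calls with the main one, but these were only 45.9% of the main calls. Of the 427, 357 (83.6%) kept their class.

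At a floor of log2 8 there were 209 negative genes, 36 of them apart without LPS alone, 65 with LPS alone, 57 the same way and 46 in neither, and among the positive 58 with LPS alone and 7 in opposite ways. With a mean of log2 6 or more 264 were negative, 46 apart without LPS alone, 78 with LPS alone and 54 the same way, and 78 positive genes were apart with LPS alone. With no floor 182 negative genes were apart without LPS alone and 193 in neither. With the mean of a gene's probe sets, 68 positive genes were apart with LPS alone, and of the negative 49 the same way, 3 in opposite ways and 68 in neither. These settings test fewer or more genes, or damp low readings. Quantile normalization gave 937 calls, 868 of them shared (93.2% of the main ones). The 181 positive genes apart without LPS alone were the class whose count kept within 1.5 times under all 7 alternatives.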

Other observations

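Of 1397 probe sets past the floor with no gene name, 83 (5.94%) were positive and 86 (6.16%) negative by 2-fold, beside 5.19% and 4.73% of the genes. Among 499 that name several genes 24 were positive and 16 negative. The 29 Affymetrix control probe sets past the floor had differences of responses from -0.19 to 0.77, with a median of 0.21, so none reached 2-fold.

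Of 6 mast cell, basophil and eosinophil markers past the floor 2 were negative and 1 positive (4.73% and 5.19% over all genes). In each state 4 of the 6 were 2-fold or more lower in the knockout and 1, Prg2, was higher. The summed linear level of all 10 measured markers of the list was 669, 1595, 609 and 2020. Fcer1a, a chain of the high-affinity IgE receptor, read 5.76, 7.31, 2.84 and 2.73 (-1.66) and Cpa3, a mast cell protease, 4.78, 6.77, 2.998 and 3.34 (-1.64), while Hdc, which makes histamine, had 1.12. In the Myc and Max network Mnt (-1.40) and Mxi1 (-1.39), which oppose Myc, were the negative members, beside Mycl and Myc among the positive. Among 23 genes of activin, BMP and Id, Id3 (2.02) and Tgfbr2 (1.08) joined Id1 on the positive side and Smad1 (-1.21) joined Inhba and Fst on the negative. Lectin and scavenger receptor genes went both ways, with Olr1 at 2.50 and Clec4e at 1.502 lower in the unstimulated knockout, and Marco (-1.24) and Clec4n (-1.17) lower in both states.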
